A study of Mus musculus with 4 samples.

Results

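The genes described here are 7 genes of the airway lining in mouse lung: the secretoglobins Scgb1a1, Scgb3a1 and Scgb3a2, the secreted defence protein gene Bpifa1, the gel-forming mucins Muc5b and Muc5ac, and the antibacterial lectin gene Reg3g. They are 7 of the 23282 rows of the expression tables. They were chosen by their measured log2 values in these same libraries, so their levels and differences are a description and carry no test. Lung RNA was profiled in 4 libraries, 1 per group, by QuantSeq 3' mRNA-Seq, a method that reads transcript ends, so that long and short transcripts can be compared by their counts. All groups were male CDF1 mice, given in the labels as postnatal day 28 with 10 mice per group. Day 28 matches how old the animals were when they were bought. Lungs were collected only once the experiment had ended, so the profiled mice were older than the labels state. The normal control E(-)T(-) had neither exercise nor tumor, and the normal exercise group E(+)T(-) ran on a treadmill at high intensity. The cancer control E(-)T(+) had no exercise and carried CT26, a line of mouse colorectal carcinoma injected into the tail vein, and the cancer exercise group E(+)T(+) had both. The tumor is therefore an injected cell line that seeds the lung, and not a tumor of airway origin. For calf muscle the study used a representative mouse of each group and refers to a similar analysis of lung, but the sources do not state for lung whether a library came from 1 mouse or from a pool. With 1 library per group no difference has a replicate check.

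Secretory cells of the conducting airways, of which club cells are the best known in mouse, line the bronchi and bronchioles together with ciliated and basal cells. They release small secretoglobins, of which the Scgb1a1 product is the most abundant, and enzymes within them metabolise inhaled compounds. BPIFA1 is a secreted protein of the upper and larger airways that lowers surface tension and acts against bacteria, and MUC5B and MUC5AC build the mucus gel. REG3G is a secreted C-type lectin that kills Gram-positive bacteria and is best known from the gut, where interleukin-22 acting through STAT3 induces it in epithelial cells.

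Of the 7 genes, 4 stood higher in E(-)T(+) than in each of the other 3 libraries (Scgb3a1, Bpifa1, Muc5b and Reg3g), and 2 stood lowest there (Scgb1a1 and Scgb3a2). The proximal promoters of the 3 genes with the largest excess in that library, Scgb3a1, Bpifa1 and Reg3g, are printed here to show what sequence lies before these start sites. They are the 250 bases before the start from RefSeq on GRCm38.p6, for Scgb3a1 chr11:49663345-49663594 on the plus strand, for Bpifa1 chr2:154142630-154142879 on the plus strand and for Reg3g chr6:78468875-78469124 on the minus strand. Only these 3 of the 7 genes had an entry in the promoter table used. Capitals mark the motif letters that were found.
Scgb3a1: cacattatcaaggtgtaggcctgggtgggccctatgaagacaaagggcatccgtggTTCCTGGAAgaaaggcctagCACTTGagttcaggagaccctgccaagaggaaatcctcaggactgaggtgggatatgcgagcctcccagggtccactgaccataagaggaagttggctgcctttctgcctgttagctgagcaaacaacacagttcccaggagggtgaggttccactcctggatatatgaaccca
Bpifa1: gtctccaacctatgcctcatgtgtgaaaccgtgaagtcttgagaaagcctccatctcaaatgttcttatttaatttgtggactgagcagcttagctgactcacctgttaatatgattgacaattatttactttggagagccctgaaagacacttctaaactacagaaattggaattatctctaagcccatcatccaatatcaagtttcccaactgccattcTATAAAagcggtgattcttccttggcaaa
Reg3g: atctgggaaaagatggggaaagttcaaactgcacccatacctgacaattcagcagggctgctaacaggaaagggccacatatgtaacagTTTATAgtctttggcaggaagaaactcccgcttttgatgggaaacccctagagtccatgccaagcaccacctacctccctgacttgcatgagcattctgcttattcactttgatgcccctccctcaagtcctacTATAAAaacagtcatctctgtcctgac
The motifs, searched on both strands, were a STAT element (TTCNNNGAA, which is its own reverse complement), a forkhead motif (TGTTTAC), an NKX2-1 motif (CAAGTG), a C/EBP motif (TTNNGCAA) and a Grainyhead motif (AACCGG), none of which overlapped another in these windows. A TATA box (TATAAA) was added after the sequences had been read. The Scgb3a1 window held the STAT letters from -194 to -186 of the start and the NKX2-1 letters on the opposite strand from -174 to -169. The Bpifa1 window held the TATA letters from -29 to -24. The Reg3g window held the TATA letters from -27 to -22, and on the opposite strand from -161 to -156. Of 32851 mouse promoters of this length, 7% held the STAT letters, 11.6% the NKX2-1 letters, 12.4% the TATA letters, 9.6% the C/EBP letters, 5.6% the Grainyhead letters and 3.2% the forkhead letters. The 3 windows thus shared none of the searched motifs, and Bpifa1 and Reg3g shared the TATA letters near the start site.

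Values from here on are given in a fixed order of the libraries: normal control, normal exercise, cancer control, cancer exercise. Depth ranged from 9354521 to 13367979 gene-assigned reads, and 3 reads correspond to between 0.224 and 0.321 CPM, the read count scaled to the library total. Hemoglobin genes took 14.3%, 14.2%, 1.43% and 31.4% of the reads. E(+)T(-) held reads of genes seen in E(-)T(+) and absent from E(-)T(-). For 9 such genes, each at a normalized count of at least 500 in E(-)T(+), the E(+)T(-) level was between 0.642% and 2.18% of the E(-)T(+) level, with a median of 1.47%. One of them is Krt20, a keratin of intestinal epithelium, with 0, 46, 2696 and 476 reads. Differences of the 7 genes that involve E(+)T(-) are therefore also given with the median share taken out of it, where this moves a difference by over 0.1 on the log2 scale.

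Scgb1a1, which encodes the club cell secretory protein, was the main transcript of the set. Its level was 18.71, 18.99, 16.84 and 19.01 on the deposited log2(normalized read count + 1) scale, from 504273, 566796, 106838 and 450634 reads. It ranked 3, 3, 3 and 5 among all rows by level and took 3.87%, 4.43%, 1.14% and 3.37% of all reads. E(-)T(+) stood apart with the lowest level, and the other 3 libraries lay close together. Scgb3a2, a secretoglobin of the smaller airways, stood at 13.48, 14.10, 12.68 and 12.92 from 13463, 19048, 5980 and 6605 reads. Both libraries with tumor lay below both without, and its whole range of 1.42 was the narrowest of the 6 genes with more than 2 reads in some library. Scgb3a1, a secretoglobin of the larger airways, had the reverse order of Scgb1a1 over the libraries, with levels of 12.15, 11.75, 14.67 and 11.15 from 5358, 3756, 23724 and 1937 reads. It ranked 236, 403, 23 and 777 among all rows.

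Bpifa1 stood at 9.60, 9.65, 13.75 and 8.13, from 911, 876, 12538 and 239 reads, and ranked 2359, 2403, 73 and 5680. Reg3g stood at 8.19, 8.33, 13.23 and 7.06, from 343, 348, 8768 and 113 reads, and ranked 5520, 5157, 116 and 8186. Both had their highest level in E(-)T(+) and their lowest in E(+)T(+), while the 2 libraries without tumor lay 0.06 apart for Bpifa1 and 0.13 apart for Reg3g. These 2 intervals of the read ratio reached 0, from -0.08 to 0.19 for Bpifa1 and from -0.09 to 0.35 for Reg3g, so that counting error alone covers both differences. With the median share of E(-)T(+) taken out of E(+)T(-) they stood at -0.36 and -0.70. Intervals here and below are 95% exact (Clopper-Pearson) intervals of the log2 read ratio scaled by library size, and cover counting error alone. The E(-)T(+) excess thus placed Bpifa1 and Reg3g, at ranks 73 and 116, among the abundant transcripts of that lung library.

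The mucins were scarce. Muc5b stood at 5.38, 4.40, 7.38 and 5.13, from 48, 22, 151 and 29 reads, again highest in E(-)T(+). Muc5ac, the mucin of goblet cells, had 0, 0, 0 and 2 reads. It missed the filter of a mean normalized count of at least 4, which 15164 of the 23282 rows and 6 of the 7 genes passed, and is left out of the counts that follow. The values of 0 allow up to 0.230, 0.235 and 0.321 CPM in the first 3 libraries, so that no difference in Muc5ac was detectable at this depth.

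**Figure D1:**
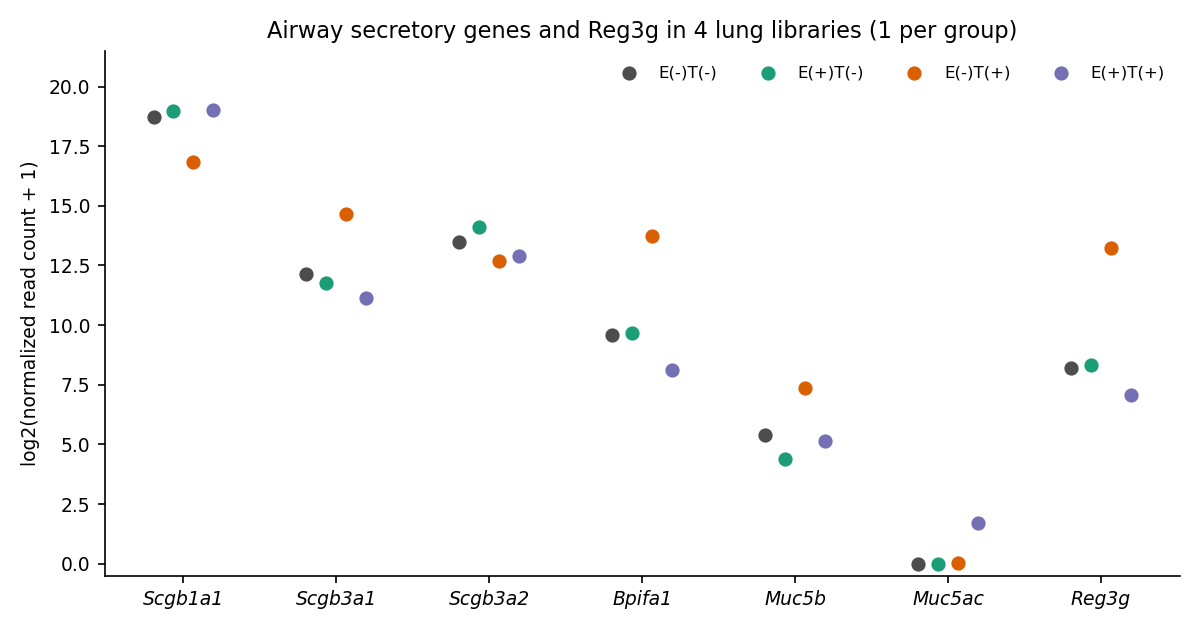
Levels of the 7 genes in 4 lung libraries. The vertical axis is the deposited log2(normalized read count + 1), the horizontal axis lists the genes, and each point is 1 library. E(-)T(+) has the highest point for Scgb3a1 (14.67), Bpifa1 (13.75), Muc5b (7.38) and Reg3g (13.23) and the lowest for Scgb1a1 (16.84) and Scgb3a2 (12.68).

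The make-up of the secreted transcripts therefore differed between libraries. The 7 genes together took 4.03%, 4.62%, 1.69% and 3.44% of all reads. Scgb1a1 made up 96.2%, 95.9%, 67.6% and 98.1% of the reads of the 7 genes. Scgb3a1 made up 1.02%, 0.636%, 15.0% and 0.421% of them, Bpifa1 0.174%, 0.148%, 7.94% and 0.0520%, and Reg3g 0.0654%, 0.0589%, 5.55% and 0.0246%. Scgb3a1 was 1.05% (95% exact interval 1.02% to 1.08%) of the summed reads of Scgb3a1 and Scgb1a1 in the normal control and 18.2% (18.0% to 18.4%) in the cancer control. Reg3g was 27.4% (24.9% to 29.9%), 28.4% (25.9% to 31.0%), 41.2% (40.5% to 41.8%) and 32.1% (27.3% to 37.3%) of the summed reads of Reg3g and Bpifa1. These shares do not depend on how the libraries were scaled to each other. Within the set E(-)T(+) was thus poorer in Scgb1a1 reads and richer in those of Scgb3a1, Bpifa1 and Reg3g.

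**Figure D2:**
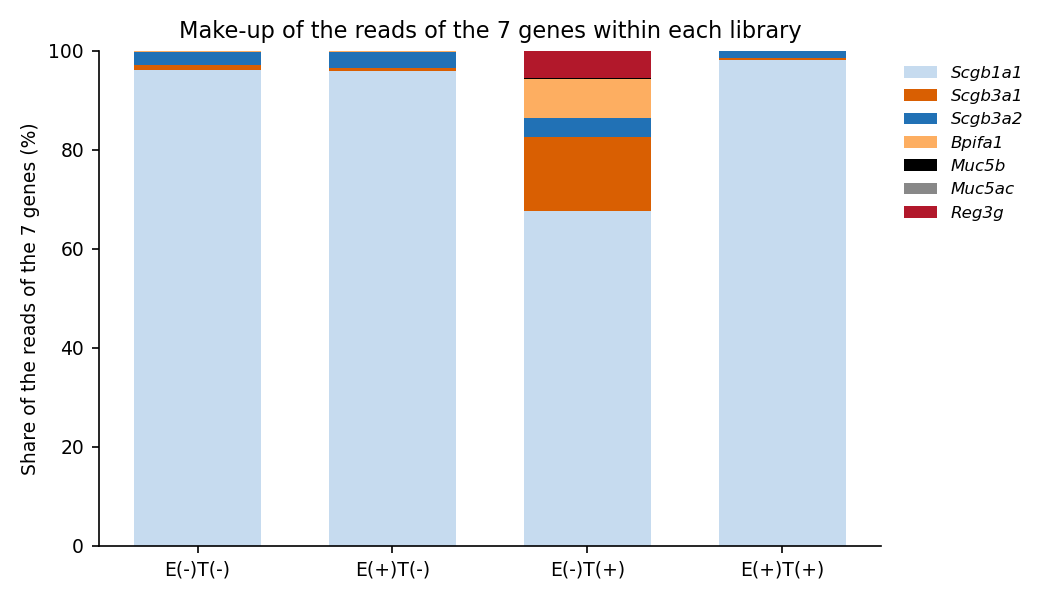
Make-up of the reads of the 7 genes in each library. Bars show the percent of the reads of the 7 genes that each gene took, 1 bar per library. Scgb1a1 fills 96.2%, 95.9% and 98.1% of the first, second and last bars and 67.6% of the bar of E(-)T(+), where Scgb3a1 takes 15.0%, Bpifa1 7.94% and Reg3g 5.55%.

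The first comparison asked what exercise did in lungs without tumor, E(+)T(-) over E(-)T(-). Differences are between deposited log2 values, and a gene was called at a 2-fold difference, which is 1 on this scale. None of the 6 genes was called, beside 5.28% of all filtered rows called higher and 4.7% called lower. Scgb3a2 was 0.61 higher (0.58 to 0.64) and Scgb1a1 0.28 higher, and Scgb3a1 was lower by 0.40 (-0.46 to -0.34). Muc5b stood at -0.98 with the widest interval (-1.81 to -0.26), since it rested on 22 and 48 reads. With the median share of E(-)T(+) taken out of E(+)T(-), the Reg3g and Bpifa1 differences moved as given above and that of Scgb3a1 from -0.40 to -0.57. That of Muc5b moved from -0.98 to -1.16, past the 2-fold limit, so that 1 of the 6 genes was then called. With the lowest and the highest of the 9 shares, Reg3g stood at -0.17 and -1.39. The median share amounted to 44.1% of the Reg3g value of E(+)T(-), 25.1% of that of Bpifa1, 11.1% of that of Scgb3a1 and 0.330% of that of Scgb1a1. The Reg3g level of E(+)T(-) is thus not fixed by these data to within 2-fold.

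The second comparison asked what tumor did in lungs without exercise, E(-)T(+) over E(-)T(-). Reg3g was 32.9-fold higher, a log2 difference of 5.04 (4.89 to 5.20), and Bpifa1 was 17.7-fold higher, at 4.15 (4.05 to 4.25). Scgb3a1 was higher by 2.51 (2.47 to 2.56) and Muc5b by 1.995 (1.54 to 2.52). Scgb1a1 was lower, at -1.87 (-1.88 to -1.86), and Scgb3a2 stood at -0.80 (-0.85 to -0.76), inside the 2-fold limit. Of the 6 genes, 4 were called higher and 1 lower, where 20.6% of all filtered rows were called higher and 25.7% lower. The median over the 6 genes was 2.25, and that over all rows was -0.03.

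The third comparison asked what exercise did in lungs with tumor, E(+)T(+) over E(-)T(+). It shares the E(-)T(+) library with the second with the sign turned, so that a gene high in that library enters both. Reg3g was 72.1-fold lower, at -6.17 (-6.47 to -5.92), and Bpifa1 was 49.0-fold lower, at -5.61 (-5.81 to -5.43). Scgb3a1 stood at -3.52 (-3.59 to -3.45) and Muc5b at -2.25 (-2.91 to -1.71). Scgb1a1 was 4.50-fold higher, at 2.17 (2.16 to 2.18), and Scgb3a2 stood at 0.24 (0.19 to 0.29). With scaling to library totals Scgb1a1 stood at 1.56, Scgb3a2 at -0.37 with its sign turned, Scgb3a1 at -4.13, Bpifa1 at -6.22, Muc5b at -2.85 and Reg3g at -6.78, and the same 5 genes were called. Of the 6 genes, 1 was called higher and 4 lower, where 24.3% of all filtered rows were called higher and 17.7% lower. The median was -2.88 over the 6 genes and 0.01 over all rows.

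The fourth comparison asked what tumor did in exercised mice, E(+)T(+) over E(+)T(-). Bpifa1 stood at -1.52 (-1.74 to -1.32), Reg3g at -1.27 (-1.59 to -0.96) and Scgb3a2 at -1.18 (-1.22 to -1.14). Scgb3a1 stood at -0.61, Muc5b at 0.73 (-0.10 to 1.62) and Scgb1a1 at 0.02 (0.01 to 0.02). Of the 6 genes, 0 were called higher and 3 lower, where 14.9% of all filtered rows were called higher and 13% lower. With the median share of E(-)T(+) taken out of E(+)T(-), Reg3g stood at -0.43 and lost its call, and Bpifa1 stood at -1.11. Scgb3a1 then stood at -0.44 and Muc5b at 0.90. With the highest of the 9 shares Bpifa1 stood at -0.85, inside the 2-fold limit, and Reg3g at 0.26, with its sign turned. In the deposited values the 2 genes with the largest tumor effects without exercise thus had effects of the other sign with exercise, and for Reg3g this sign depends on the share taken out. The Scgb1a1 difference of 0.02 became -0.40 with scaling to library totals and -0.07 with totals that left out hemoglobin genes. With scaling to library totals Scgb3a1 stood at -1.02, past the 2-fold limit, so that 4 of the 6 genes were then called lower.

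**Figure D3:**
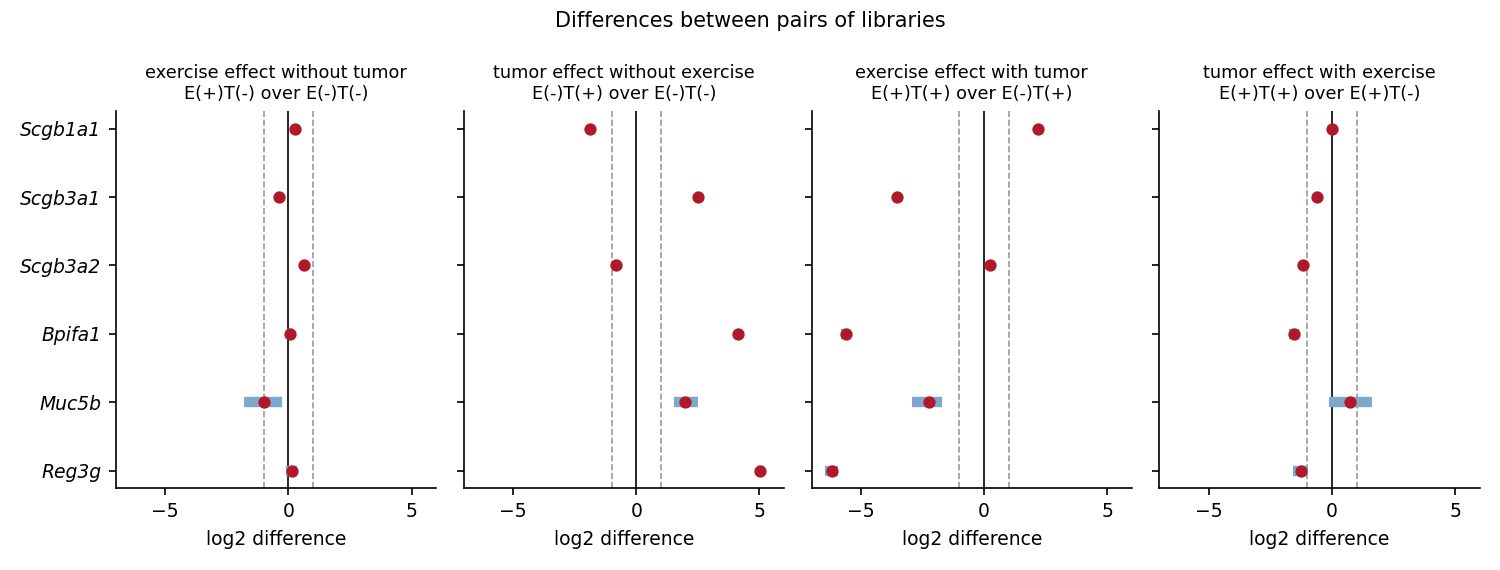
Log2 differences of the 6 genes that passed the filter, in 4 comparisons. The horizontal axis is the log2 difference, red points are differences of the deposited values, blue bars are 95% exact intervals of the read ratio (hidden behind the point where narrow), and dashed lines mark 2-fold. Reg3g lies at 5.04 in the second panel, -6.17 in the third and -1.27 in the fourth, and Scgb1a1 at -1.87, 2.17 and 0.02.

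Patterns over the 4 libraries were compared by the root mean square difference of log2 values centred on each gene's mean, over 4 libraries, as a description. Bpifa1 and Reg3g were the closest pair of the 7 genes (0.35), followed by Scgb3a1 and Muc5b (0.54), Scgb1a1 and Scgb3a2 (0.69) and Scgb3a1 and Bpifa1 (0.78). Scgb1a1 and Reg3g were the farthest apart (3.27). The 6 genes that passed the filter thus did not share 1 pattern. Among 9391 other rows with a mean normalized count of at least 100, those closest to Scgb1a1 were Csrp1 (0.02), the simple-epithelium keratin Krt7 (0.02), the cilium gene Tekt4 (0.03), Nsg1 (0.04) and the transcription factor gene Zbtb16 (0.05). Krt7, for example, had 3518, 3962, 737 and 3221 reads. Those closest to Bpifa1 were Matn2 (0.53), Slc20a2 (0.65), Angptl7 (0.68), Sdhd (0.69) and Prune2 (0.75), and those closest to Reg3g were Tenm4 (0.52), Matn2 (0.66), Prune2 (0.77), Slc20a2 (0.85) and Slc14a1 (0.85). Matn2, an extracellular matrix protein gene, had 43, 67, 682 and 29 reads, and Tenm4, a teneurin gene, had 13, 11, 524 and 9. Bpifa1 and Reg3g lay closer to each other than to any of these rows.

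The family neighbours of the members were mostly without reads. Reg3g lies at chr6:78466269-78468874 (GRCm38.p6, minus strand) in a cluster with Reg3b, Reg3d, Reg3a, Reg2 and Reg1, and these 5 genes had 0 reads in all 4 libraries. Reg3g was thus the one gene of its cluster with reads, at 8768 in E(-)T(+), and Reg4 had 4 reads in E(-)T(-) and 0 elsewhere. Bpifa1 lies at chr2:154142880-154149217 on the plus strand among 13 other BPI fold family genes, secreted lipid-binding proteins. Bpifb1, a protein of mucous airway secretions, had 144, 102, 572 and 83 reads, a difference of 2.35 (2.09 to 2.63) in the second comparison and -2.68 (-3.04 to -2.36) in the third. Bpifb5, next to it, had 87, 61, 13 and 39 reads and differed the other way, at -2.29 (-3.34 to -1.53) and 1.61 (0.74 to 2.71). Bpifa2 had 5 reads in E(-)T(-) and 0 elsewhere. The other 10 genes (Bpi, Bpifa3, Bpifa5, Bpifa6, Bpifb2, Bpifb3, Bpifb4, Bpifb6, Bpifb9a and Bpifb9b) had 0 reads throughout. Muc5b lies on the plus strand at chr7:141839059-141873089, beside Muc5ac at chr7:141788958-141819227, and the other gel-forming mucins of that cluster, Muc6 and Muc2, had at most 3 reads in any library. Of the other secretoglobins with a row, Scgb1c1 had 252, 372, 21 and 147 reads, a difference of -3.16 (-3.94 to -2.57) in the second comparison and 2.84 (2.24 to 3.64) in the third. Like Scgb1a1 and Scgb3a2, and unlike Scgb3a1, it was lowest in E(-)T(+). Scgb2b27, Scgb1b2 and Scgb1b27 had 0 reads. In GENCODE vM21 no other gene overlaps any of the 7.

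Most club cell genes outside the set were, like Scgb1a1, lower in E(-)T(+) than in E(-)T(-). All of the 14 listed club cell genes passed the filter. In the second comparison 0 were called higher and 11 lower (median -1.49), beside 20.6% and 25.7% of all rows. In the third 11 were called higher and 0 lower (median 1.55), beside 24.3% and 17.7%. With scaling to library totals the median in the third was 0.94. Cyp2f2, a cytochrome P450 of club cells, had 36530, 34888, 2156 and 21478 reads, at -3.72 and 3.41 in these comparisons. Cbr2, a carbonyl reductase, had 85334, 76674, 18192 and 76522 reads, at -1.86 and 2.17, the latter equal to that of Scgb1a1 at 2 decimals. Aldh1a1, a retinal dehydrogenase, stood at -1.93 and 1.15. In the first comparison none of the 14 was called, beside 5.28% of all rows called higher and 4.7% lower. In the fourth 1 was called higher and 0 lower, beside 14.9% and 13%. Scgb3a1, Bpifa1, Muc5b and Reg3g were therefore high in the library in which Scgb1a1 and 11 of 14 further club cell genes were low.

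Goblet cell genes had few reads. Of 14 listed, 13 had a row and 9 passed the filter, of which 2 were called higher and 2 lower in the second comparison (median 0.10), and 1 higher and 5 lower in the third (median -1.33). The counts of the second comparison are near the 20.6% and 25.7% of all rows, and beside the third stand 24.3% and 17.7%. With the filter raised to a mean count of 100, 1 goblet gene was left (Creb3l1). The medians then turned to -1.65 in the second and 0.65 in the third. Gcnt3, with 1, 4, 15 and 2 reads, is 1 of the 2 called higher and of the 5 called lower, and passed the filter through E(-)T(+) alone, so that the filter fixed its calls. Itln1, an intelectin of mucous cells, had 35, 22, 135 and 1 reads, higher by 2.28 (1.77 to 2.89) in the second. Agr2, a chaperone for mucins, had 27, 18, 39 and 11 reads, and Tff2, a trefoil peptide gene, had 49, 33, 41 and 11. Creb3l1, a transcription factor gene of secretory pathways, had the most reads of the list, 315, 318, 77 and 114, and stood at -1.65 in the second. Of the other mucins, Muc1, a cell-surface mucin, had 1379, 968, 244 and 708 reads, at -2.13 and 1.63. Muc4, another surface mucin, had 46, 40, 54 and 65 reads.

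Of the host defence genes of the airway lining, those called higher in the second comparison were also called higher in the fourth. Of 14 listed, 11 passed the filter. In the second comparison 5 were called higher and 1 lower (median 0.96), beside 20.6% and 25.7% of all rows. In the third 7 were called higher and 2 lower (median 1.31), beside 24.3% and 17.7%. In the fourth 8 were called higher and 0 lower (median 2.82), beside 14.9% and 13%. With scaling to library totals the median in the third was 0.70. S100a8, a subunit of calprotectin that neutrophils carry in large amounts, had 1608, 4680, 3567 and 77268 reads, and S100a9, its partner, had 2536, 7143, 3818 and 75783. Wfdc2, a secreted protease inhibitor family gene, had 13068, 11516, 5649 and 13148 reads, and Lyz1, a lysozyme gene, had 9612, 8886, 1304 and 4514. Named after their values were seen, Ltf, the iron-binding lactotransferrin, had 157, 123, 1560 and 554 reads, and Saa3, an acute phase protein gene, had 86, 199, 8101 and 4789. Lcn2, an iron-siderophore binding protein gene also named in this way, had 345, 335, 797 and 3460. Ltf was like Reg3g in being highest in E(-)T(+), but in E(+)T(+) it stayed above both libraries without tumor, at 2.51 in the fourth comparison, where Reg3g stood at -1.27. High levels in both libraries with tumor were thus seen for Saa3, Ltf and Lcn2 and not for Reg3g or Bpifa1. Which cells of the lung gave the reads of the listed defence genes was not tested.

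The cytokine pathway known to act on Reg3g in epithelium was read from a list of 17 genes, of which 14 passed the filter. Il22, Il17a and Il17f, cytokines that act on mucosal epithelium, had 0 reads in all 4 libraries, which allows up to 0.224 to 0.321 CPM. Socs3, a feedback inhibitor induced by STAT3, had 322, 599, 1375 and 3073 reads, higher by 2.46 in the second comparison and again by 1.25 in the third, where Reg3g was lower by 6.17 on the log2 scale. Stat3 itself had 6237, 4801, 4510 and 6815 reads and stayed inside the 2-fold limit in all 4 comparisons. Il6st, the shared receptor subunit of the interleukin-6 family, had 1330, 1011, 370 and 775 reads, and Il1b, an inflammatory cytokine gene, had 336, 787, 139 and 1657. Over the list, 4 genes were called higher and 2 lower in the second comparison and 8 higher and 1 lower in the third. Beside the second stand 20.6% and 25.7% of all rows, and beside the third 24.3% and 17.7%. Named after their values were seen, Lif, a cytokine gene of the interleukin-6 family, had 5, 2, 29 and 1 reads and is the one called lower in the third, and Il6 had 0, 2, 4 and 21. Lif passed the filter through E(-)T(+) alone and Il6 through E(+)T(+) alone. Both are among the 4 called higher in the second, and Il6 is among the 8 called higher in the third. The filter thus fixed the calls of Lif, and that of Il6 in the third. With at most 5 reads outside E(-)T(+), the order of Lif over the libraries was not measured and is not set beside that of Reg3g. Socs3 was highest in E(+)T(+), the library in which Reg3g was lowest. Bulk lung RNA does not give the Socs3 level of the epithelium, and a link between Socs3 and Reg3g was not tested.

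Transcription factors of airway secretory cells and Notch genes were mostly lower in E(-)T(+). All of the 16 listed passed the filter. In the second comparison 1 was called higher and 11 lower (median -1.75), beside 20.6% and 25.7% of all rows. In the third 9 were called higher and 1 lower (median 1.09), beside 24.3% and 17.7%. With scaling to library totals the median in the third was 0.48. Cebpd, a C/EBP factor of acute responses, was the one called higher, with 1460, 2597, 3460 and 3849 reads and a difference of 1.61. Hes1, a Notch target, had 3148, 2245, 372 and 814 reads, at -2.71. Foxa2, a forkhead factor of lung epithelium, had 1943, 1220, 170 and 396 reads, at -3.14, and Cebpa had 1139, 1049, 362 and 731, at -1.28. Sox2, a factor of the conducting airways and named after its values were seen, had 262, 162, 407 and 87 reads. It lay just inside the 2-fold limit in the second comparison, at 0.999 (0.77 to 1.23), and was the one gene of the list called lower in the third, at -2.12 (-2.48 to -1.80). Like Scgb3a1, Bpifa1 and Reg3g, Sox2 was highest in E(-)T(+) and lowest in E(+)T(+).

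Most markers of ciliated, alveolar and general epithelial cells were, like Scgb1a1, lower in E(-)T(+) than in E(-)T(-). Of 10 ciliated cell markers, 0 were called higher and 9 lower in the second comparison (median -1.71), and their summed normalized counts were 8637, 8370, 1232 and 5195. Of 8 alveolar type 2 markers, 0 were higher and 8 lower (median -2.49), with Sftpc, the surfactant protein C gene, at 137668, 153669, 11268 and 69686 reads. Of 6 alveolar type 1 markers, 5 were lower, and of 6 general epithelial markers, 5 were lower (median -1.56), with sums of 10052, 12041, 3389 and 15185. In the third comparison 8 of the 10 ciliated, 8 of the 8 alveolar type 2 and 6 of the 6 general epithelial markers were called higher. Of all filtered rows, 25.7% were called lower in the second comparison and 24.3% higher in the third. Basal cell markers were scarce and mixed, with summed reads of 37, 32, 218 and 50 over 5 genes, most of them from Krt15 in the cancer control. Krt15 had 17, 21, 188 and 28 reads, and the defining basal keratin Krt5, which passed the filter through its cancer control reads alone, had 0, 0, 18 and 1. Krt14 had 2, 7, 3 and 5 reads and Ngfr 11, 4, 8 and 16, while the defining basal factor Trp63 had 7, 0, 1 and 0. The part of these shifts in the differences of the 7 genes was not tested. In bulk lung RNA fewer cells of a type and less RNA per cell cannot be told apart. Of tissues that a dissection could add, only airway cartilage and pancreatic acini were listed. Summed reads were low, at 0, 2, 8 and 14 for 9 airway cartilage genes and 22, 32, 51 and 45 for 9 pancreatic acinar genes. Muscle, heart and fat genes were not listed here. The amount of larger airway in each library was not measured. Of 8 intestinal epithelium markers, listed because CT26 is of colorectal origin, Cdx2 and Lgals4 had 0 reads in all libraries, Krt20 is given above and Cdh17 had 0, 2, 17 and 5 reads. The part of tumor cells in the Reg3g reads was not tested.

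**Figure D4:**
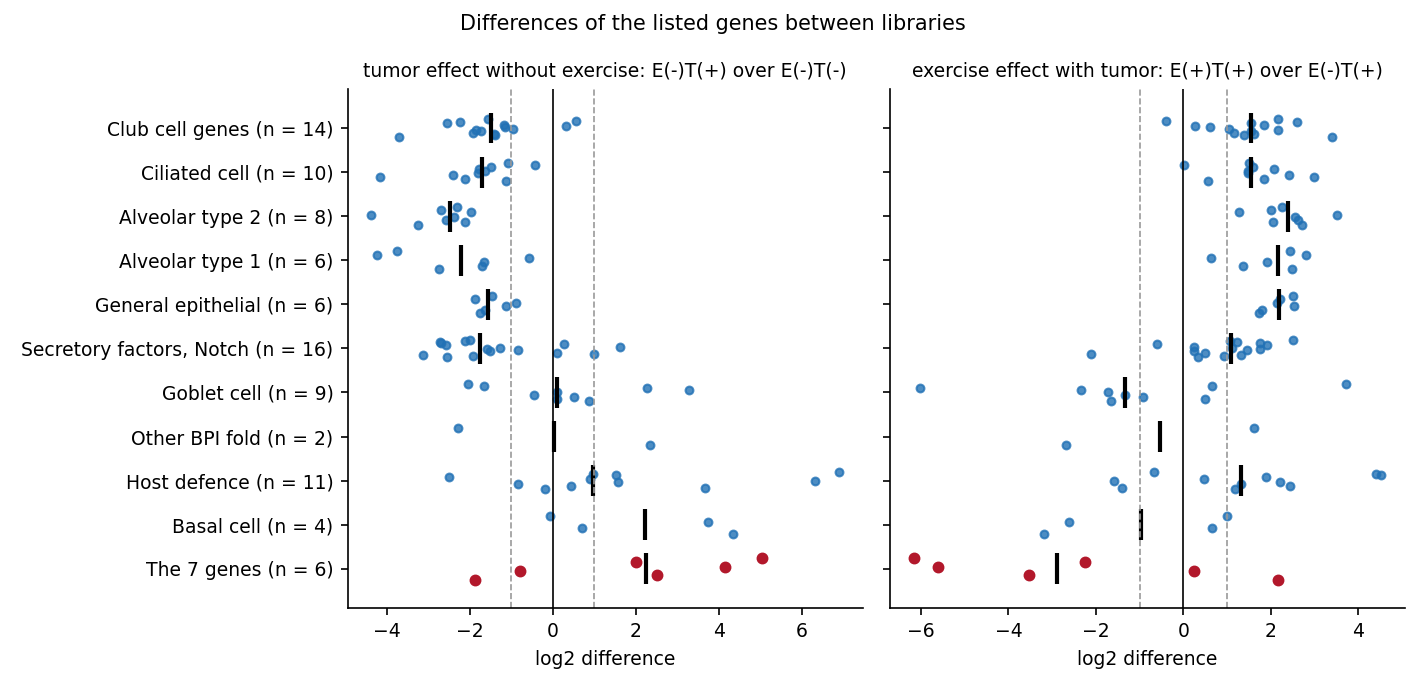
Differences of listed genes in the second comparison (left) and the third (right). The horizontal axis is the log2 difference, each point is 1 gene that passed the filter, black bars are medians of each list and dashed lines mark 2-fold. Club cell genes have a median of -1.49 on the left and 1.55 on the right, while the 6 tested genes of the set, in red, have medians of 2.25 and -2.88.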

How the data were processed

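The authors made QuantSeq 3' mRNA-Seq libraries, used Bowtie2 for alignment and the coverage tool of bedtools for gene counts, and applied quantile normalization in edgeR, with mm10 named in the submitters' processing notes. Versions, annotation and use of strand were not given in the sources used here. The deposited values are log2(normalized read count + 1) at 3 decimals, in 23282 rows with 23238 distinct symbols. Whole reads were recovered by inverting the quantile adjustment (fitted dispersion 0.372). All values (100%) were matched within 0.001 and 99.46% at 3 decimals, and the method was tested on simulated data. The highest read counts carry the rounding of the files. Comparisons were differences of deposited log2 values with a 2-fold limit and a mean normalized count of at least 4, with no p-value since each group held 1 library. Python 3.11.15, numpy 2.4.6, scipy 1.17.1 and pandas 2.3.3 were used. Coordinates came from RefSeq (GRCm38.p6), the build that mm10 names, and overlaps from GENCODE vM21.

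The members and gene lists were chosen with earlier results of these data known. Named genes were the 7 members, from each list the 2 to 4 genes with the highest mean normalized count and those at 0 throughout, and for 3 members the 5 closest patterns. Family neighbours of the members were also named, and Gcnt3 was named for its dependence on the filter, after its values were seen. Any other gene is named as chosen after its values were seen, or stands for a marker list. Alternatives were a pseudocount of 4, other scalings and filters, linearly scaled reads, and removal of the E(-)T(+) share from E(+)T(-).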

Additional observations from a re-analysis of the deposited data

Results flagged for a closer look

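The tumor effects of Bpifa1 and Reg3g differed in sign between mice without and with exercise. Bpifa1 differed by 4.15 on the log2 scale without exercise and by -1.52 with it, and Reg3g by 5.04 and -1.27. With 1 library per group the difference between these effects was not tested. Taking the E(-)T(+) share out of E(+)T(-) left the effects with exercise at -1.11 and -0.43, and with the highest of the 9 shares they stood at -0.85 and 0.26, so that the sign of the Reg3g effect with exercise depends on this share.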

How the results depend on the processing

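Of 24 member differences, 13 were past 2-fold, and with the median E(-)T(+) share as the one taken out of E(+)T(-), 0 of these changed sign and 12 stayed past 2-fold in each alternative that could be run. The exception was the Reg3g tumor effect with exercise, at -0.43 with that share taken out. With the highest of the 9 shares this effect changed sign, to 0.26, and that of Bpifa1 lost its call, at -0.85. In the exercise effect without tumor the number of members past 2-fold went from 0 to 1 (Muc5b, lower) under library totals alone, under totals without hemoglobin genes and with that share taken out. Without the low-value filter Muc5ac, on 2 reads, was counted as higher in both comparisons of E(+)T(+). Under library totals alone Scgb3a1 reached -1.02 and Scgb1a1 turned from 0.02 to -0.40 in the tumor effect with exercise, and Scgb3a2 turned from 0.24 to -0.37 in the exercise effect with tumor. Scgb1a1 stood at -0.07 under totals without hemoglobin genes. Use of library totals moved the median of all rows to -0.41 and -0.59 and the share of higher calls from 53.5% to 28.2% and from 57.8% to 31.6%. It took the list medians of the exercise effect with tumor from 1.55 to 0.94 (club), 1.55 to 0.95 (ciliated), 1.31 to 0.70 (defence), 1.11 to 0.50 (cytokine pathway) and 1.09 to 0.48 (transcription factors), with no change of sign. When the filter was raised to a mean count of 100, 1 goblet gene was left (Creb3l1), so that the list's median for the tumor effect without exercise turned from 0.10 to -1.65, and for the exercise effect with tumor from -1.33 to 0.65. No replicate could be left out with 1 library per group. No paired analysis was possible because the groups hold 1 library each.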
